A study of Homo sapiens with 2 samples.

Results

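Small structural RNAs are short non-coding RNAs that work inside RNA-protein particles. The genes described here are RN7SL1, RN7SL2 and RN7SL3, RMRP, RPPH1, RNY1, RNY3, VTRNA1-1 and SCARNA2, which were chosen by name and not by their level. Of these 9 genes, 8 had a row among the 57736 genes of both expression tables, and RN7SL1 had none that the annotation named. Their expression was measured by RNA-Seq in wild-type HEK293T cells, an established human line first obtained from kidney of an embryo and made with the large T antigen of SV40. The cells were untreated, were grown in DMEM with serum at 37°C, and gave 1 group of 2 replicates. RNA was selected on poly(A) and sequenced as reads of 50 bases, and replicates 1 and 2 held 10593491 and 10104118 estimated counts. The labels do not say whether the replicates were separate cultures, so every comparison between them is a comparison of libraries. Of 11 kidney markers, 3 were detected, namely WT1 (10.2 ± 0.346 TPM, SD, n = 2), LRP2 (9.12 ± 1.19 TPM) and PAX2 (3.41 ± 1.32 TPM), whereas 5 had no counts at all. PAX8, a defining marker of renal epithelium, had 0 and 1 counts. Of 4 markers of other cells, the collagen gene COL1A1 was at 8.89 ± 1.94 TPM, the leukocyte gene PTPRC was at 0.165 ± 0.0778 TPM, HBB had no counts, and PECAM1 was not matched to a row.

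Most of these RNAs are made by RNA polymerase III, which ends its transcripts at short runs of T, and they do not carry the long poly(A) tail of messenger RNA. 7SL RNA, encoded by the RN7SL genes, is the scaffold of the signal recognition particle, which brings ribosomes that make secreted proteins to the endoplasmic reticulum. RMRP is the RNA of RNase MRP, which takes part in the maturation of ribosomal RNA, and RPPH1 is the catalytic RNA of RNase P, which trims the leader of transfer RNA. Y RNAs such as RNY1 and RNY3 bind the Ro60 protein and have been tied to RNA quality control and DNA replication. VTRNA1-1 is a component of the vault, a large cytoplasmic particle, and SCARNA2 is a Cajal body RNA that guides modification of the U2 spliceosomal RNA.

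The genes of 7SL RNA lie on chromosome 14. RN7SL2 and RN7SL3 are on its minus strand in GRCh37, each with a length of 297 nt, and a further copy of this length lies inside RPS29, where the RefSeq table also places RN7SL1.

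Sequences of the other genes, all written 5′ to 3′, are given where a feature of them is described. RMRP, at chr9:35657751-35658014 on the minus strand, is shown because it was the highest of the named genes, and capitals mark its longest run of A.
RMRP: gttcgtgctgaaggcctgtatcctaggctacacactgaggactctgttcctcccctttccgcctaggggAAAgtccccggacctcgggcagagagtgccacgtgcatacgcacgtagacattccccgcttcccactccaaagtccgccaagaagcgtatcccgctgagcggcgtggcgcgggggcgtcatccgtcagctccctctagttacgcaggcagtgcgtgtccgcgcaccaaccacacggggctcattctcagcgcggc
In the annotation used here, the gene identifier of the RPPH1 row covers chr14:20811207-20811844 on the minus strand. The deposited row holds 2 transcripts, and whether these reach over the whole span was not tested. This span of 638 bases, annotated as a long non-coding RNA, ends in a run of 18 A, marked by capitals in its last 300 bases (chr14:20811207-20811506, minus strand). The bases below were read from the annotated span and not from the deposited transcripts. The RefSeq length of RPPH1 is 341 nt, and whether the run lies within that RNA was not tested.
RPPH1 row, last 300 bases: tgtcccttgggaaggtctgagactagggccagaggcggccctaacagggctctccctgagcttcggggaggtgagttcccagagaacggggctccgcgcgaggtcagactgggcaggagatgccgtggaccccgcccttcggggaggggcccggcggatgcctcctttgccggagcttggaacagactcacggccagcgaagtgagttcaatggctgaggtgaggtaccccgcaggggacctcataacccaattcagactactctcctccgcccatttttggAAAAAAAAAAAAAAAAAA
Of 17359 annotated genes that span 80 to 700 bases, 0.530% held a run of at least 18 A, and 2.34% held one of at least 10 A. The other 8 loci, the RN7SL1 locus among them, had no run longer than 4 A. The deposited length of the RPPH1 row, weighted by the use of its transcripts, was 333.74 nt in replicate 1 and 333.17 nt in replicate 2, far below 638 nt. Which end the counted reads came from cannot be read from values per gene.
RNY1 lies at chr7:148684228-148684340 on the minus strand and VTRNA1-1 at chr5:140090860-140090958 on the plus strand. They are shown for their ends, which close with TTTT, in capitals, and the sequence of RNY3 is not shown.
RNY1: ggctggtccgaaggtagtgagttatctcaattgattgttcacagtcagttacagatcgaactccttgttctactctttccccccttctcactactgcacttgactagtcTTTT
VTRNA1-1: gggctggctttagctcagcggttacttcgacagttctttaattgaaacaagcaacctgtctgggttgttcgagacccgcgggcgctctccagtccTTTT
The same ending (TTTT, searched on the transcript's own strand) was found in 11.4% of 5407 annotated small RNA genes. SCARNA2, at chr1:109642815-109643241 on the plus strand, had a deposited length of 420 nt.

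All 8 genes with a row were detected, a gene being called so when its TPM, a level per transcript length set to an equal total in every library, reached 1 in each replicate. Over all 57736 genes 27.7% passed this threshold, and of the 16405 genes with a deposited length of 80 to 450 nt 6.57% passed it. The mean levels spanned a ratio of 1332 on the TPM scale, from RMRP to VTRNA1-1. The libraries were selected on poly(A), and how much of each RNA passed that selection was not measured. The levels and ranks given here are therefore those in the libraries and not amounts in the cells. Together the 8 genes took up 0.481% of all TPM in replicate 1 and 0.618% in replicate 2, a mean of 0.549 ± 0.0966% (SD, n = 2), against 0.0899 ± 0.0168% of the estimated counts.

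RMRP had 5045 counts and 3133.73 TPM in replicate 1, and 6255 counts and 4034.91 TPM in replicate 2. Its mean level of 3584 ± 637 TPM was the 15th highest of all genes, beside the translation elongation factor EEF1A1 at 3561 ± 18.7 TPM. On the scale of reads the pair stood far apart, since EEF1A1 had 39491.66 estimated counts in replicate 1 over a transcript of 1529 nt. RPPH1, whose protein complex shares subunits with that of RMRP, had 1228.19 counts (576.58 TPM) in replicate 1 and 1822.09 counts (890.11 TPM) in replicate 2. At 733 ± 222 TPM it lay beside the RNA-binding protein gene PCBP2 (732 ± 29.7 TPM). For both of these RNAs replicate 2 was the higher library, and RMRP exceeded RPPH1 in each of them.

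Of the genes for 7SL RNA, RN7SL2 had 1521.89 counts (819.96 TPM) in replicate 1 and 1704.95 counts (953.96 TPM) in replicate 2. Its mean of 887 ± 94.8 TPM was level with RPS25, a protein of the small ribosomal subunit, at 887 ± 54.9 TPM. RN7SL3 had 310.00 counts (167.02 TPM) and 328.57 counts (183.84 TPM), a mean of 175 ± 11.9 TPM beside the cytokinesis gene PRC1 at 175 ± 15.7 TPM. RN7SL2 thus exceeded RN7SL3 in both libraries, although the counts of both rest on the sharing of reads described further on. A row of exactly 297 nt, ENSG00000258486, had no symbol in the annotation and was the only such row within 5 nt of the 7SL length with at least 100 summed counts. It had 2499.98 counts (1346.93 TPM) in replicate 1 and 3805.27 counts (2129.13 TPM) in replicate 2, more than RN7SL2 in each. It may be the row of RN7SL1, which could not be settled from the annotation used here, so it is given by its identifier and was not counted among the 8 genes. If it were RN7SL1, 9 of 9 genes would be detected with 0.723 ± 0.152% of the TPM, and 4 of 8 tested genes would differ between the libraries by the test described further on. RN7SL2, RN7SL3 and this unnamed row together held 4331.87 and 5838.79 counts, or 0.233% and 0.327% of the TPM.

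SCARNA2 had 130 and 150 counts, whole numbers with no shared read, and 46.87 and 56.17 TPM. Its mean was 51.5 ± 6.58 TPM, beside CTXN1 at 51.5 ± 1.14 TPM. RNY1 had 25.69 counts (53.13 TPM) in replicate 1 and 12 counts (25.77 TPM) in replicate 2. The exact Poisson 95% intervals of the rounded counts, 17.0 to 38.1 and 6.20 to 21.0, overlapped. RNY3 had 3.57 counts (8.90 TPM) in replicate 1 and 10.75 counts (27.79 TPM) in replicate 2, and here too the intervals of 1.09 to 10.2 and 5.49 to 19.7 counts overlapped. RNY1 had the larger value in replicate 1 and RNY3 in replicate 2, each on few reads, and neither passed the test between the libraries given further on. VTRNA1-1 had 1 count in each library, which stood for 2.64 and 2.74 TPM, with an interval of 0.0253 to 5.57 counts. It passed the TPM threshold with a single read, and its level lay under that of 3 reads (7.92 and 8.22 TPM). These intervals cover counting error only.

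**Figure D1:**
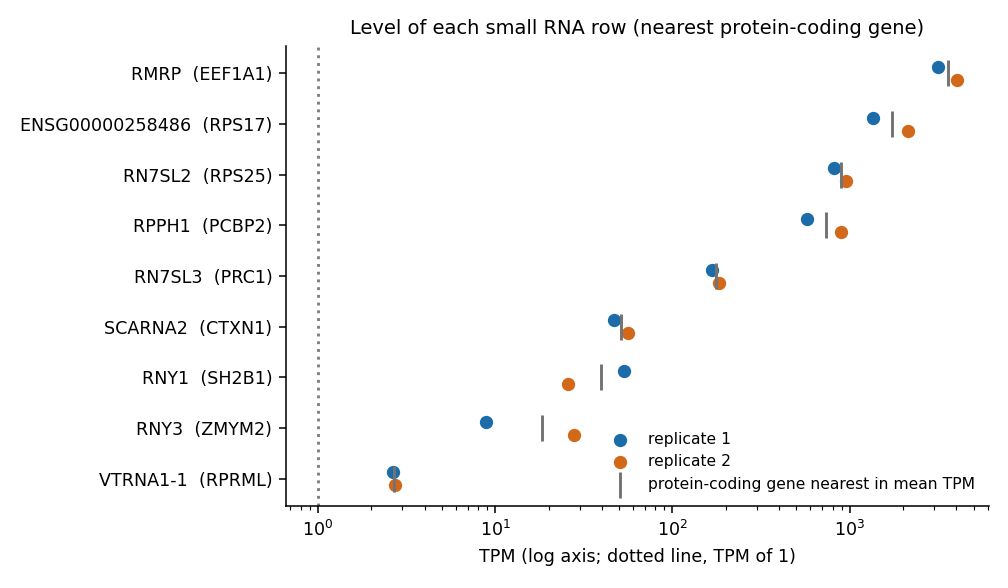
TPM of each small RNA row on a log axis, with 1 point per replicate, and a grey mark for the protein-coding gene nearest in mean TPM (named in brackets). The rows run from 3584 TPM for RMRP down to 2.69 TPM for VTRNA1-1, and the replicates are farthest apart for RNY3 (8.90 and 27.79 TPM) and RNY1 (53.13 and 25.77 TPM).

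In the order of levels, RMRP stood above RN7SL2 and RPPH1, which were followed by RN7SL3, SCARNA2, RNY1, RNY3 and VTRNA1-1. The values of the replicates overlapped between RN7SL2 and RPPH1, between SCARNA2 and RNY1, and between RNY1 and RNY3. Within each library RN7SL2 was above RPPH1, at 819.96 against 576.58 TPM and 953.96 against 890.11 TPM. The order of SCARNA2 and RNY1, and that of RNY1 and RNY3, changed between the libraries and was not resolved. The values of the other neighbouring pairs did not overlap. For RNY3 and VTRNA1-1, however, the deposited TPM intervals did overlap in both libraries. In replicate 1 they ran from 0.000840 to 15.1 and from 0.106 to 11.6, so the order of this pair was not resolved. With 2 values for each gene no test of the order was made. The unnamed row of 7SL length fell between RMRP and RN7SL2 without overlap with either.

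The length scaling weighed on these values. The effective length used by the authors was 48.2 nt shorter than the transcript, which left 50.82 nt for VTRNA1-1 and 371.82 nt for SCARNA2. In consequence 1 read in replicate 1 was worth 2.64 TPM in VTRNA1-1, 2.49 TPM in RNY3, 2.07 TPM in RNY1, 0.621 TPM in RMRP and 0.361 TPM in SCARNA2. RNY1 in replicate 1, with 25.69 counts, therefore had a higher TPM than SCARNA2 with 130 counts. On CPM, counts scaled to the library total without regard to length, the ratio from RMRP to VTRNA1-1 was 5664 in place of 1332. The deposited TPM also lay above the upper bound of its own deposited interval for RN7SL2, RMRP and RPPH1 in both libraries and for RNY3 in replicate 2. For RMRP in replicate 1 the TPM was 3133.73 against bounds of 2813 and 2973. Such values were less common among all detected genes, at 5.91% in replicate 1 and 5.83% in replicate 2. These shares were not matched for count or length, so whether genes of like count differ was not tested.

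**Figure D2:**
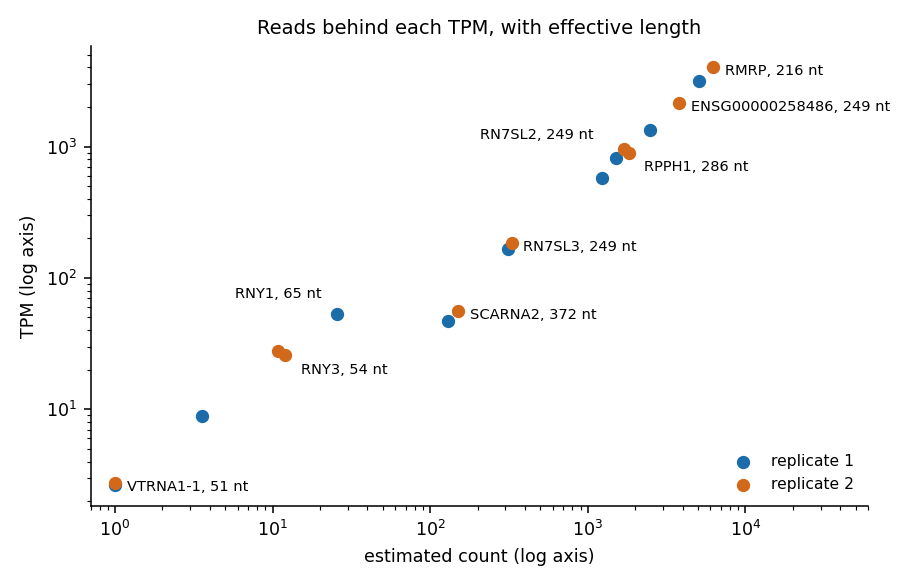
TPM against the estimated count for each small RNA row and replicate, both on log axes, with the effective length in replicate 1 beside the name. The shortest RNAs lie highest for their reads, as for RNY1, where 25.69 counts gave 53.13 TPM, against 130 counts and 46.87 TPM for SCARNA2.

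How far a read of 50 bases can be assigned to a gene was described by cutting each locus into all of its windows of 50 bases and counting their places in the GRCh37 genome on either strand. For RMRP (215 windows), RPPH1 (589 windows), VTRNA1-1 (50 windows) and SCARNA2 (378 windows) every window was found once. The windows of RPPH1 were those of its annotated span of 638 bases. Of the windows of RNY1, 75.0% of 64 were unique, whereas none of the 53 windows of RNY3 was, and these had a median of 7 places. RN7SL3 had 62.5% of 248 windows to itself, RN7SL2 had 12.1% and the RN7SL1 locus had 14.9%. Of the 248 windows of RN7SL2, 158 were found in the RN7SL1 locus and 76 in RN7SL3, so most windows of RN7SL2 fit more than 1 of these genes.

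The posterior SD of the count, deposited by the authors, measures how uncertain the sharing of reads was. It was 0 in both libraries for RMRP, VTRNA1-1 and SCARNA2, and 0.48 and 0.40 counts for RPPH1. For RN7SL2 it was 44.47 and 47.68 counts, which is 2.92% and 2.80% of the count, and for RN7SL3 it was 14.79 and 15.70 counts, or 4.77% and 4.78%. The unnamed row of 7SL length had a posterior SD of 44.38 and 48.73 counts, close to that of RN7SL2. RNY1 had 3.70% and 11.6%. RNY3 had the largest share of the 8 genes, 37.3% in replicate 1 and 21.7% in replicate 2. Its posterior mean counts were 1.48 and 3.46, well under the deposited 3.57 and 10.75, and its deposited TPM interval in replicate 2 ran from 0.00164 to 24.8. The level of RNY3 was therefore the least certain of those measured on more than 1 read.

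**Figure D3:**
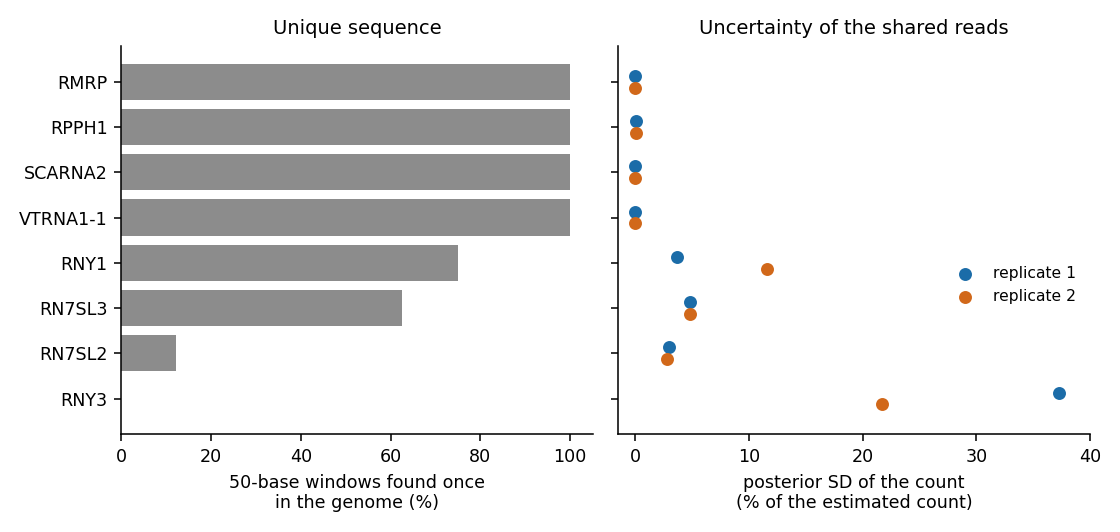
For each gene, bars give the percent of its 50-base windows found once in the genome, and points give the posterior SD as a percent of the estimated count in each replicate. The 4 genes with 100% unique windows have an SD of at most 0.0391%, whereas RNY3, with no unique window, has 37.3% and 21.7%.

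Replicate 2 was compared with replicate 1 gene by gene with a binomial test (exact and two-sided) on rounded counts, given the TMM-scaled sizes of the libraries, and p-values were adjusted after Benjamini and Hochberg over 17920 genes with at least 10 summed counts. Of all genes tested 3.87% were called at an adjusted p under 0.05, with 2.14% higher in replicate 2 and 1.73% higher in replicate 1. Of the 7 small RNA genes tested 3 were called, and all of these were higher in replicate 2. VTRNA1-1, with 2 counts in all, was not tested. The share of called genes grew with the count, to 6.74% of the 4821 genes with at least 1000 summed counts (4.0% higher in replicate 2), and the 3 called small RNAs were all in that range. The median log2 ratio was 0.28 over the 7 genes and 0.00168 over all genes tested. In bulk RNA, fewer cells with a transcript and less of it per cell cannot be told apart.

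Among the called genes of the named small RNAs, RPPH1 differed most, with a ratio of 1.57 (log2 ratio 0.65, adjusted p = 1.15e-31 by the exact binomial test). RMRP was 1.31 times higher in replicate 2 (log2 ratio 0.39, adjusted p = 4.39e-43 by the same exact test). Among the 4821 genes with at least 1000 summed counts, 0.353% had a ratio as high as that of RMRP or higher. RN7SL2 was 1.18 times higher in replicate 2 (log2 ratio 0.24, adjusted p = 0.000197, exact test), and this call was lost with edgeR's exact test and a dispersion estimated from the same 2 libraries (adjusted p = 0.737). With that test RMRP (adjusted p = 0.0185) and RPPH1 (adjusted p = 4.27e-06) stayed past the threshold. The binomial test covers counting error only, with reads taken as independent molecules, and so leaves out the spread between libraries of 1 condition and the posterior SD of the counts.

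The other 4 genes tested did not pass. The ratio of replicate 2 to replicate 1 was 1.12 for RN7SL3 (exact binomial test, adjusted p = 0.618) and 1.22 for SCARNA2 (exact, adjusted p = 0.532). It was 0.498 for RNY1 (exact, adjusted p = 0.376) and 2.70 for RNY3 (exact, adjusted p = 0.440). The Y RNAs had few counts, and their counting intervals overlapped. Whether the counts of these 4 genes were enough to show a difference of the size seen in RMRP was not tested. Summed over RN7SL2, RN7SL3 and the unnamed row of 7SL length, the CPM had a ratio of 1.41. The unnamed row alone had 1.61 (exact binomial test, adjusted p = 3.62e-74).

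Other short RNAs were set beside these ratios. RN7SK, the RNA that holds the elongation factor P-TEFb, was also higher in replicate 2, with 4364.98 and 5697.13 counts, a ratio of 1.38 and an adjusted p of 1.78e-54 (exact binomial test). CPM summed over the 1912 snRNA genes had a ratio of 1.14, and those over the 1457 snoRNA genes had a ratio of 1.16. Over the 3043 miRNA genes, with 7023.71 and 9062.10 counts, the ratio was 1.35. MIR3648 alone held 5513 and 7462 of these counts, with a ratio of 1.43, so the ratio of this class rests mostly on that gene. The 2024 other genes of the class misc_RNA, with RN7SK and the named genes taken out, had 803.56 and 710.55 counts and a ratio of 0.927, and protein-coding genes had 0.994.

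**Figure D4:**
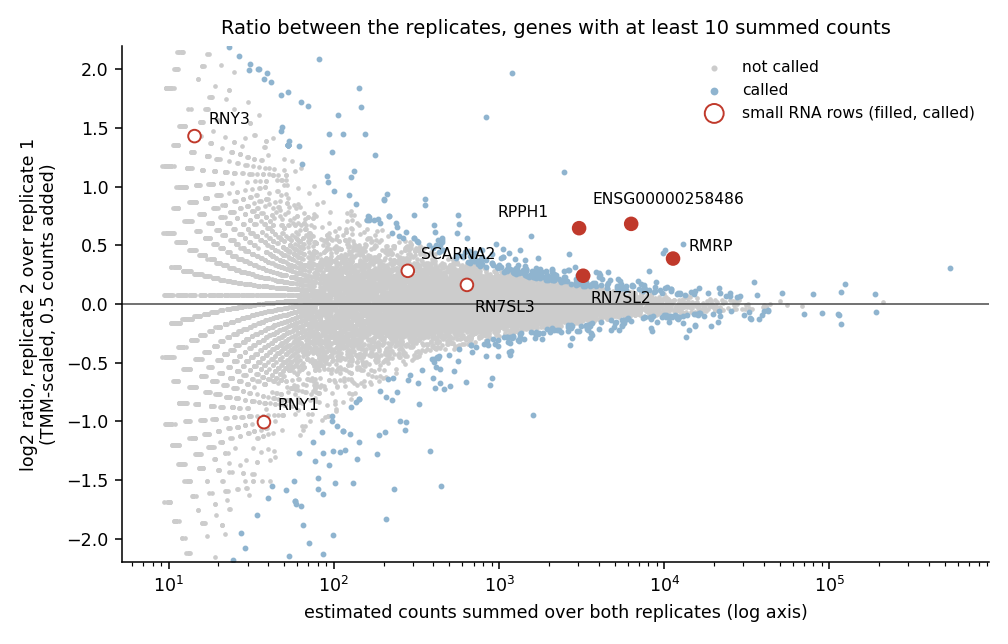
Log2 ratio of replicate 2 to replicate 1 against the summed estimated count (log axis) for the 17920 genes tested, with the small RNA rows as large circles, filled where called. RPPH1, RMRP, RN7SL2 and ENSG00000258486 lie above 0 among genes of like count, and 202 genes beyond a log2 ratio of 2.2 in either direction fall outside the axis.

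Most of the relatives of these genes had no counts. Of 845 RN7SL pseudogenes 45 were detected and 538 had no counts. All of these pseudogenes together had 470.74 and 398.41 counts, against 4331.87 and 5838.79 in RN7SL2, RN7SL3 and ENSG00000258486 together. The largest of the pseudogenes were RN7SL737P, with 33.97 and 24 counts, and RN7SL832P, with 18.01 and 20 counts. Of 855 copies of the Y RNAs 65 were detected, with 227.67 and 231.51 counts in all, more than the 29.26 and 22.75 counts of RNY1 and RNY3 together. Of the other Y RNA genes, RNY4 had 0 counts in both libraries and RNY5 had 0 and 1. At this depth a true level of 3 counts could still have given 0, and 3 counts were 0.283 CPM and 0.297 CPM in replicates 1 and 2.

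Among the vault RNAs, VTRNA1-2 had no counts, VTRNA1-3 had 3 and 4 counts and VTRNA2-1 had 0 and 1. All 4 vault RNA genes were thus at the edge of detection in these poly(A)-selected libraries at this depth. Of 50 other SCARNA genes 15 were detected. SCARNA7 (330 nt) and SCARNA9 each had 58 and 66 counts, and SCARNA13 had 23.41 and 26.09, all below the counts of SCARNA2. On TPM, SCARNA9 was above SCARNA2 in both libraries, at 59.93 and 83.66 against 46.87 and 56.17, whereas SCARNA7 and SCARNA13 were below it. None of the 5 relatives with the highest counts passed the binomial test between the libraries. The 5 RMRP pseudogenes had 7 and 3 counts together, and the 2 RPPH1 pseudogenes had 1 and 0. By class, 6.16% of 2030 misc_RNA genes, 4.71% of 1912 snRNA genes and 10.2% of 1457 snoRNA genes were detected.

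Genes that lie over or beside the small RNAs could share reads with them, since no source used here says whether the counting took the strand into account. PARP2, a DNA repair gene on the plus strand, starts inside the annotated span of RPPH1 and had 492.81 and 476.91 counts in replicates 1 and 2. ENSG00000254846, on the strand of RPPH1 and 548 bp from that span, had 0 and 1 counts. CCDC107 begins 273 bp from RMRP on the other strand and had 70.22 and 84.24 counts, and ARHGEF39 at 858 bp had 445.78 and 421.75. NEMF, 797 bp from RN7SL3, had 919.82 and 976.77 counts. Of the annotated genes without a row in the tables, ENSG00000282885 overlaps RN7SL2, ENSG00000278002 lies 223 bp from it, GHET1 lies 279 bp from RNY1 and ENSG00000292256 overlaps VTRNA1-1.

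Genes for the proteins that these RNAs work with were all detected. All 63 genes of 7 lists passed the TPM threshold, as did 63.7% of all protein-coding genes. Between the libraries 4 of the 63 were called, beside 3.87% of all genes tested and 6.74% of those with at least 1000 summed counts, and their median log2 ratio was -0.00991. All 8 genes for the signal recognition particle and its receptor were detected, from SRP9, an Alu domain protein, at 343 ± 31.0 TPM to the receptor subunit SRPRA at 52.2 ± 4.16 TPM. SRP9 was the only one of them called between the libraries, at 3344.69 and 3625.34 counts, a ratio of 1.14 (exact binomial test, adjusted p = 3.49e-06). All 11 genes for proteins of RNase P and RNase MRP were detected, from POP7 at 120 ± 9.02 TPM to RPP40 at 19.3 ± 3.75 TPM. None of these genes was called. On the TPM scale of these poly(A)-selected libraries, the RNAs of the enzymes, RMRP and RPPH1, were thus higher than each of these protein genes.

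Of 5 genes for proteins that bind Y RNAs, that of nucleolin (NCL) was the highest at 1482 ± 58.4 TPM and RO60 the lowest at 67.9 ± 3.62 TPM. NCL was called lower in replicate 2, at 17910.50 and 15502.59 counts and a ratio of 0.914 (exact binomial test, adjusted p = 8.41e-14). The 3 genes for vault proteins were low, with PARP4 at 17.2 ± 0.361 TPM. MVP, the gene of the major vault protein, was at 2.92 ± 0.474 TPM, on 19 and 15 counts. The vault RNA genes, for their part, had 4 counts or fewer in each library. Of 6 genes for proteins of Cajal body and box C/D particles, NOP56 was at 496 ± 39.3 TPM. WRAP53, whose protein carries Cajal body RNAs to their site, was at 27.0 ± 1.28 TPM. FBL, which encodes fibrillarin, the methyltransferase of these particles, was called lower in replicate 2, at 3196.00 and 2793.37 counts. Its ratio was 0.923 (exact, adjusted p = 0.0497).

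All 13 genes listed for subunits of polymerase III were detected, from POLR1D at 101 ± 4.92 TPM to POLR3F at 16.6 ± 2.38 TPM, and none was called between the libraries. All 17 genes for factors of polymerase III were detected. Their levels ran from 159 ± 11.1 TPM for GTF3A, known for the transcription of 5S rRNA, to 5.53 ± 0.467 TPM for SNAPC1. SNAPC1 encodes a subunit of the complex that starts genes such as RMRP. GTF3A was called higher in replicate 2, at 1034.59 and 1129.64 counts and a ratio of 1.15 (exact binomial test, adjusted p = 0.0311). Since TPM is scaled per length, RMRP stood far above all of these protein genes on that scale, whereas NCL had more reads than RMRP in both libraries. None of the 4 calls among the partner genes (SRP9, NCL, FBL and GTF3A) held with edgeR's exact test, where the adjusted p was 0.967 for SRP9 and 1.0 for the others.

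**Figure D5:**
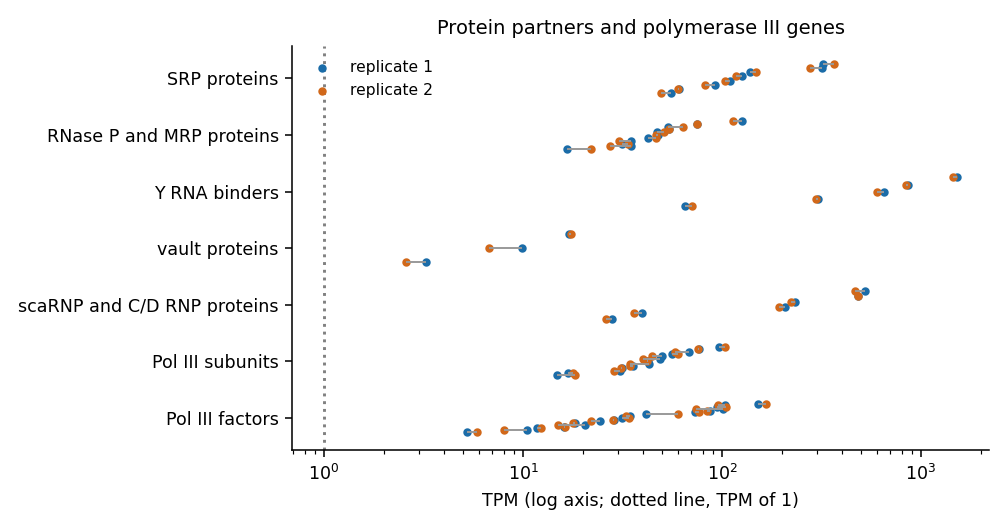
TPM of the protein partners and of the polymerase III genes in each replicate on a log axis, with 1 line per gene joining its replicates and genes sorted within their list. All 63 genes lie to the right of a TPM of 1, from MVP at 2.92 to NCL at 1482.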

How the data were processed

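Poly(A)+ RNA of HEK293T cells was sequenced in 2 libraries. Per the labels, the submitters' processing notes name Trimmomatic 0.36, STAR 2.6.1c, RSEM 1.3.1 and the GRCh37.p13 (hg19) build. The paper's methods name featureCounts for counting, but the deposited columns are those of RSEM. The authors deposited estimated counts, which divide a read that matches more than 1 gene among those genes, and TPM and FPKM values, which they scaled by length. The authors also deposited scores of uncertainty, namely the posterior SD of each count and the limits of the interval around each TPM. A deposited table of the pooled reads was only compared with the sum of the replicates.

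Gene annotation was that of GENCODE release 44 in its GRCh37 mapping. RN7SL2, RN7SL3, RNY1, RNY3 and VTRNA1-1 were matched by gene identifier and RMRP by transcript identifier. The annotation gives no symbol to the rows used for RPPH1 and SCARNA2, which were matched by their place between the RefSeq neighbours (CCNB1IP1 and PARP2, TMEM167B and CFAP276) and by length (334 against 341 nt, 420 against 420 nt). Sequences were read from the GRCh37 genome. Some sequences are not reported here.

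Counts were rounded and compared between the libraries with scipy 1.17.1 (exact binomial test), with TMM factors from edgeR 4.0.16 in R 4.3.3 and 0.5 counts added in log2 ratios. The binomial test and the window search were tested on simulated data. Levels between genes were compared on TPM. The labels give 1 group, so no conditions were compared. The binomial p-values set 1 library against the other and cover counting error only. The genes, lists and tests were chosen with earlier results of these data known. Named were all listed genes, the highest, lowest and called gene of each list, the 5 relatives with most counts and the other Y and vault RNA genes, genes within 1 kb, the protein-coding gene nearest in mean TPM, and the markers. RN7SK, MIR3648 and the unnamed row ENSG00000258486 were added after their values were seen. Alternatives were other thresholds, normalizations, filters, windows and tests, and leaving out each replicate.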

Additional observations from a re-analysis of the deposited data

How the results depend on the processing

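All 8 genes stayed detected with a TPM of 0.1, an FPKM of 1 or a single replicate, and 7 or 6 of them with a TPM of 5 or with 10 estimated counts. The calls of RMRP and RPPH1 held under all 6 alternatives (RLE, total counts, no minimum count, a minimum of 100, posterior mean counts and edgeR's exact test), and that of RN7SL2 under all but the last (adjusted p from 0.000185 to 0.737). Over all genes, 694 calls became 448 with posterior mean counts and 214 with edgeR's exact test. The genes of the small RNA classes detected, 365 in the main count, were 113 at a TPM of 5 and 31 at 10 estimated counts, and 694 to 710 with a single replicate. The share of TPM held by the 8 genes, 0.549%, was 0.0899% on estimated counts and from 0.481% to 0.618% with a single replicate. It was 0.654% with the relatives and 0.723% with ENSG00000258486 (added after the data were seen). Among genes of at least 300 nt, only RPPH1 and SCARNA2 of the 8 remained, and they held 0.0830% of the TPM of such genes. The ratio of the highest to the lowest mean, 1332, was 667 on posterior mean TPM and 5664 on CPM, and from 1187 to 1473 with a single replicate. Over the windows of all loci pooled, 71.8% were unique at 50 bases, 63.6% at 36 bases and 54.8% at 20 bases. Longer loci weigh more in this pool, which held the RN7SL1 locus and the annotated span of RPPH1. That span gave 589 windows of 50 bases, all unique. Leaving out a replicate gives no comparison between libraries. No paired analysis was possible because both samples belong to 1 group.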

Other observations

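In the authors' table of the pooled reads, RMRP had 11300 counts, the same as the sum of the replicates, while RN7SL2 had 3215.61 counts against a sum of 3226.84, and RNY3 had 16.69 against 14.32. With more reads the posterior mean of RNY3 was 6.24 counts, still far below its estimated count, and its pooled TPM of 21.2 again lay above the upper bound of 18.9. For VTRNA1-1 the posterior mean TPM, at 4.87 and 5.04, was above the deposited TPM of 2.64 and 2.74, whereas for RMRP it was lower, at 2894 and 3716 against 3133.73 and 4034.91. With windows of 20 bases some stretches of RN7SL2 were found at up to 115065 places in the genome, and none of its windows was unique, while 95.1% of those of RMRP were.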
